A study of Arabidopsis thaliana with 126 samples.

Results

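The genes described here are 42 loci of the cell cycle and DNA replication machinery of *Arabidopsis thaliana*, taken by locus ID from the 33602 loci of the gene expression tables. The rule uses no measured value, but the genes were picked with earlier results of these data known. They fall into 14 genes active in S phase, 21 active in the G2 phase and mitosis, and 7 that act in G1. RNA was sequenced from whole 3-day-old etiolated seedlings in 28 libraries that form 14 groups of 2 biological replicates. In the L*er* background, the single mutants *een-1*, *ein2-45* and *ein6-1*, the double mutant *ein6-1 een-1* and L*er* wild type were each measured after 4 hr of ethylene (ET) and in hydrocarbon-free air. In the Col-0 background, the mutants *een-2*, *ino80-8* and *arp5-1* and Col-0 wild type were measured in air only. *ein6-1* is a small deletion in REF6, a demethylase of the repressive histone mark H3K27me3, and *een-1* is an inversion on chromosome 4 that breaks EEN, which encodes part of the INO80 remodeler of nucleosomes. *ein6-1 een-1* carries both lesions and is the line in which they were found. *ein2-45* is a point mutant of EIN2, the membrane protein through which the ET signal passes, and serves as an ET insensitive control. *een-2* and *ino80-8* are T-DNA insertion lines in EEN and in INO80, the ATPase of the complex, and *arp5-1* affects ARP5, an actin-related subunit of the same complex. Each mutant is a single allele, and every library is a mixture of all organs of the seedling.

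Plant cells pass from G1 to S phase when D-type cyclins, bound to the kinase CDKA, release E2F transcription factors from the retinoblastoma protein. E2F factors then switch on the genes that license and copy DNA. At the entry to mitosis, MYB3R transcription factors act through a promoter element called MSA on B-type cyclins, CDKB kinases and genes of spindle and cytokinesis. In a seedling grown in the dark, dividing cells sit mainly in the root tip and the shoot apex, while the hypocotyl grows by cell expansion. ET acts on both division and expansion in seedlings.

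Short promoter stretches show the elements by which these 2 programs are usually told apart, since the results are given by these groups. The sequences are from the RefSeq copy of the TAIR10.1 assembly, are written 5′ to 3′ along the strand of the gene, and carry the element in capitals. An E2F site was taken as TTTCCCGC, TTTGGCGC, TTTCGCGC or TTTGCCGC and an MSA element as CCAACGG or CTAACGG, each searched on both strands in the 300 bases that run 250 bases upstream to 50 bases downstream of the annotated start. No E2F form holds the letters of an MSA form or the reverse, and no member holds both elements. Among S phase genes, the helicase genes MCM2 and MCM5 carry the first E2F form within 20 bases of the start, and in MCM3 and MCM4 the second form reads on the opposite strand.
MCM2 (chr1:16970189-16970218, plus strand): tggcgccaataTTTCCCGCctaatcgacga
MCM5 (chr2:3527501-3527530, minus strand): cggcccatcagTTTCCCGCcacattgttcc
MCM4 (chr2:7130746-7130775, minus strand): cagtaataatgGCGCCAAAatcaagtgaag
Among mitotic genes, the MSA element lies in B-type cyclins and in KNOLLE, on either strand.
CYCB1;2 (chr5:1861831-1861859, minus strand): ttatttacagtCCAACGGcctcattcgat
CYCB2;3 (chr1:7137879-7137907, minus strand): gtggcgttgatCCAACGGctgagatgaac
CYCB1;3 (chr3:3627297-3627325, minus strand): aagttcatcatCCAACGGctagaagtcta
CYCB1;1 (chr4:17624352-17624380, minus strand): aaacaatcagaCCGTTGGggttcatttat
KNOLLE (chr1:2710971-2710999, minus strand): ccaaaatatagCCGTTGGggcgaagaaat
An E2F form was present in the windows of 6 of 14 S phase members, 0 of 21 mitotic members and 1 of 7 G1 members, against 483 of 27443 protein-coding genes (1.76%). An MSA form was present in 8 of 21 mitotic members, 0 of 14 S phase members and 0 of 7 G1 members, against 854 of 27443 protein-coding genes (3.11%). A match is a run of letters and was not tested as a binding site. A window without a match says only that these exact letters are missing from it.

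**Figure D1:**
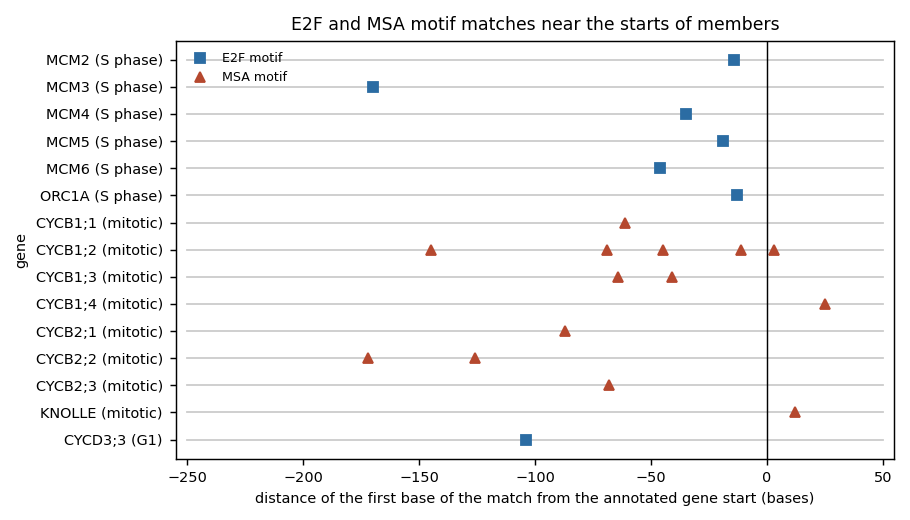
Positions of E2F and MSA letter matches in the promoter windows of the members, drawn as distance in bases from the annotated start, with 1 line per member that holds a match. E2F matches lie in 6 S phase members and 1 G1 member, and MSA matches in 8 mitotic members, all of them B-type cyclins or KNOLLE.

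Levels are given as TPM, a length-corrected share of the transcripts of a library, divided by a scaling factor per library so that the median gene agrees between libraries. Ribosomal RNA took 2.80 to 30.3% of the TPM of the L*er* background libraries, with the highest share in *ein6-1* after ET, replicate 2, and 0.921 to 3.54% in the Col-0 background libraries. Without this scaling, the median log2 difference of all genes between 2 compared groups ranged from -0.20 to 0.33, so changes below are relative to the median gene. All 42 members passed the minimum of 1 TPM in 2 libraries in both tables. A gene was said to rise or fall where limma, fitted on log2(TPM + 1) over all genes of a table, gave an adjusted p below 0.05. Counts of members at an unadjusted p below 0.05 are not calls. Only the count for ET in *ein2-45* is given with its number over all genes, so the others have no background to be read against. The number after ± beside a log2 fold change is its standard error, and n = 2 libraries in every group. In whole seedlings, fewer cells of a type and less RNA per cell cannot be told apart. As a check of the labels, EEN was at 0.312 and 0.952 TPM in *een-2* against 49.8 and 39.2 TPM in Col-0, and INO80 was at 3.36 and 2.80 TPM in *ino80-8* against 18.8 and 20.8 TPM in Col-0. ARP5 had 4.42 and 4.40 TPM in *arp5-1* and 5.46 and 5.45 TPM in Col-0 and did not pass the test. In air, REF6 was at 10.7 and 10.0 TPM in *ein6-1* against 5.84 and 6.29 TPM in L*er*, and EEN at 32.7 and 25.8 TPM in *een-1* against 26.9 and 24.1 TPM in L*er*, so neither lesion lowered the level of its gene. EIN2 was at 42.9 and 42.7 TPM in *ein2-45*, 8.30 and 7.73 TPM in *ein6-1 een-1* and 54.1 and 56.9 TPM in L*er*. The mutants of a background share their wild type libraries, so their comparisons are not independent.

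The S phase members begin with the MCM genes, whose products form the hexameric helicase that opens DNA for replication. Over the 20 L*er* background libraries MCM2 (AT1G44900) ranged 6.82 to 17.5 TPM, MCM3 (AT5G46280) 5.50 to 15.6 TPM and MCM4 (AT2G16440) 6.49 to 14.3 TPM. The other subunits were MCM5 (AT2G07690) at 8.02 to 19.0 TPM, MCM6 (AT5G44635) at 3.48 to 12.1 TPM and MCM7 (AT4G02060) at 8.06 to 17.5 TPM. The helicase genes thus stood at like levels. Of the factors that load the helicase onto origins, the origin recognition subunit ORC1A (AT4G14700) ranged 0.419 to 2.68 TPM and CDC6 (AT2G29680) 2.65 to 6.29 TPM. PCNA1 (AT1G07370) and PCNA2 (AT2G29570), near-identical genes for the sliding clamp of DNA polymerase whose reads may be split between them, ranged 12.3 to 37.2 and 17.5 to 41.0 TPM. The highest S phase member was TSO2 (AT3G27060), a small subunit of ribonucleotide reductase that supplies deoxynucleotides, at 42.6 to 81.9 TPM. E2FA (AT2G36010), an activating E2F factor, ranged 2.40 to 5.41 TPM, and the A3 cyclins CYCA3;1 (AT5G43080) and CYCA3;2 (AT1G47210), which act around the G1 to S transition, ranged 2.80 to 7.22 and 20.5 to 32.6 TPM.

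The mitotic members are led by cyclins that drive entry into mitosis. The B1 cyclins ranged 2.28 to 7.43 TPM for CYCB1;1 (AT4G37490), 9.46 to 23.8 TPM for CYCB1;2 (AT5G06150), 3.47 to 10.8 TPM for CYCB1;3 (AT3G11520) and 8.22 to 20.9 TPM for CYCB1;4 (AT2G26760). The B2 cyclins ranged 0.785 to 2.85 TPM for CYCB2;1 (AT2G17620), 4.44 to 11.6 TPM for CYCB2;2 (AT4G35620), 8.19 to 17.5 TPM for CYCB2;3 (AT1G20610) and 4.92 to 10.2 TPM for CYCB2;4 (AT1G76310). Among A cyclins, CYCA1;1 (AT1G44110) ranged 4.72 to 13.2 TPM, CYCA2;1 (AT5G25380) 0.245 to 1.05 TPM, CYCA2;3 (AT1G15570) 7.92 to 17.5 TPM and CYCA2;4 (AT1G80370) 1.59 to 5.22 TPM. CDKB kinases are found only in plants and algae and peak from G2 to M. CDKB1;1 (AT3G54180) ranged 10.5 to 26.6 TPM, CDKB1;2 (AT2G38620) 0.809 to 2.70 TPM, CDKB2;1 (AT1G76540) 21.4 to 48.7 TPM and CDKB2;2 (AT1G20930) 7.77 to 20.3 TPM. CDC20.1 (AT4G33270) and CDC20.2 (AT4G33260), adjacent near-identical genes for activators of the anaphase promoting complex (APC/C), ranged 8.74 to 27.9 and 6.56 to 19.6 TPM, and reads may be split between them. Aurora kinases, which phosphorylate histone H3 and guide the division plane, ranged 11.4 to 31.8 TPM for AUR1 (AT4G32830) and 9.84 to 18.7 TPM for AUR2 (AT2G25880). KNOLLE (AT1G08560), the syntaxin that fuses vesicles at the cell plate, ranged 19.4 to 44.4 TPM.

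The G1 members are D cyclins and their kinase partner. CDKA;1 (AT3G48750), the main cell cycle kinase of all phases, was among the most abundant members, at 58.4 to 88.5 TPM in the L*er* background and 66.3 to 86.4 TPM in the Col-0 background. CYCD1;1 (AT1G70210) ranged 8.12 to 31.1 TPM, CYCD2;1 (AT2G22490) 13.4 to 28.5 TPM and CYCD4;1 (AT5G65420) 3.73 to 8.17 TPM. The D3 cyclins, which keep leaf and shoot cells dividing, ranged 8.04 to 16.8 TPM for CYCD3;1 (AT4G34160), 14.8 to 25.4 TPM for CYCD3;2 (AT5G67260) and 6.55 to 11.1 TPM for CYCD3;3 (AT3G50070).

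In *een-1* in air, S phase and mitotic genes stood above L*er* as a body while D cyclins went both ways. CYCD3;1, CYCD3;2, CYCD1;1 and CYCD3;3 had log2 fold changes of 0.39, 0.18, 0.16 and 0.15 without a call, and CYCD2;1 and CYCD4;1 fell. In this comparison 26 members rose and 2 fell, where 11.0% of all genes tested rose and 13.5% fell. The called genes were 9 of 14 S phase members and 17 of 21 mitotic members, all higher, and 2 of 7 G1 members, both lower. All 14 S phase and all 21 mitotic members had a positive log2 fold change, with medians of 0.53 and 0.62, beside 0.15 for G1 members and 0.01 for all genes tested. Both *een-1* libraries were above both L*er* libraries in 38 members and below in 3. This was not counted over all genes, so it has no background to be read against.

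CDC20.1 had 21.3 and 27.9 TPM in *een-1* and 9.20 and 11.0 TPM in L*er* (log2 fold change 1.20 ± 0.16, adjusted p = 0.0002). Its neighbor CDC20.2 had 16.7 and 18.2 TPM in *een-1* and 8.26 and 8.14 TPM in L*er* (log2 fold change 1.00 ± 0.18, adjusted p = 0.0015). Both APC/C activators were thus above the wild type libraries without overlap. Of the B cyclins, CYCB1;1 had 7.43 and 6.50 TPM in *een-1* against 2.67 and 2.87 TPM in L*er* (log2 fold change 1.08 ± 0.22, adjusted p = 0.0034). CYCB1;2, expressed several times higher, had 20.3 and 23.6 TPM in *een-1* against 10.4 and 9.56 TPM in L*er* (log2 fold change 1.06 ± 0.14, adjusted p = 0.00018). For neither cyclin did the groups overlap. The A cyclin CYCA1;1 had 10.1 and 12.1 TPM in *een-1* against 4.72 and 4.77 TPM in L*er* (log2 fold change 1.07 ± 0.19, adjusted p = 0.0015), and CYCA2;4 had 4.47 and 4.37 TPM in *een-1* against 1.80 and 1.88 TPM in L*er* (log2 fold change 0.93 ± 0.20, adjusted p = 0.004). The Aurora kinase gene AUR1 had 24.4 and 26.4 TPM in *een-1* and 12.9 and 12.2 TPM in L*er* (log2 fold change 0.96 ± 0.20, adjusted p = 0.0037). CDKB2;2 had 16.1 and 19.9 TPM in *een-1* and 10.1 and 9.76 TPM in L*er* (log2 fold change 0.79 ± 0.19, adjusted p = 0.0076), and its paralog CDKB2;1, the most abundant mitotic member, had 32.7 and 34.8 TPM in *een-1* and 22.0 and 23.5 TPM in L*er* (log2 fold change 0.55 ± 0.15, adjusted p = 0.015). Mitotic genes of every kind, from kinases to the cell plate syntaxin KNOLLE (log2 fold change 0.54), therefore moved in the same direction.

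Among S phase genes in *een-1*, 5 of the MCM genes besides MCM3 rose by log2 fold changes of 0.48 to 0.67, and MCM3 by 0.74 (adjusted p = 0.0039). MCM3 had 12.1 and 12.6 TPM in *een-1* and 6.38 and 7.60 TPM in L*er*. ORC1A, CDC6 and CYCA3;1 also rose, by 0.71, 0.63 and 0.67. TSO2 had 67.3 and 62.4 TPM in *een-1* and 52.1 and 46.2 TPM in L*er*, which left it just outside the threshold (log2 fold change 0.39 ± 0.14, adjusted p = 0.051). PCNA1, PCNA2, E2FA and the other A3 cyclin did not pass, with log2 fold changes of 0.38, 0.15, 0.36 and 0.29. The helicase and its loaders thus passed the test while the clamp did not, a difference between genes that was not itself tested. On the G1 side, CYCD2;1 had 13.4 and 15.3 TPM in *een-1* and 22.2 and 19.3 TPM in L*er* (log2 fold change -0.50 ± 0.13, adjusted p = 0.015). CYCD4;1 had 5.67 and 5.85 TPM in *een-1* and 8.17 and 7.82 TPM in L*er* (log2 fold change -0.41 ± 0.13, adjusted p = 0.037). Neither D cyclin passed on deposited TPM without rescaling, where 32 members rose and 0 fell. The median log2 fold change of all genes was 0.32 on deposited TPM and 0.01 after rescaling, so that count includes a shift of all genes. CDKA;1 had 74.6 and 67.0 TPM in *een-1* and 75.8 and 88.5 TPM in L*er*, a difference that did not pass (log2 fold change -0.21 ± 0.11, adjusted p = 0.19). The counts were sensitive to single libraries, with 10 members higher and 0 lower without L*er* replicate 1, 17 and 1 without L*er* replicate 2, 17 and 0 without *een-1* replicate 1, and 9 and 1 without *een-1* replicate 2. Summed shoot meristem markers (5 genes) were 12.6 to 17.7 TPM in *een-1* and 8.54 to 9.53 TPM in L*er*. Most of the sum in *een-1* came from CLV1, with a mean of 9.85 TPM, beside 1.75 TPM for STM. CLV3 was at 0 and 0.131 TPM in *een-1* and 0.380 and 0 TPM in L*er*. Root meristem markers (5 genes) summed to 48.5 to 53.2 TPM in *een-1* and 48.0 to 49.1 TPM in L*er*. Seed storage and embryo genes (11 genes) summed to 1652 to 3683 TPM in *een-1* and 2263 to 2402 TPM in L*er*. Their part in the result was not tested.

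**Figure D2:**
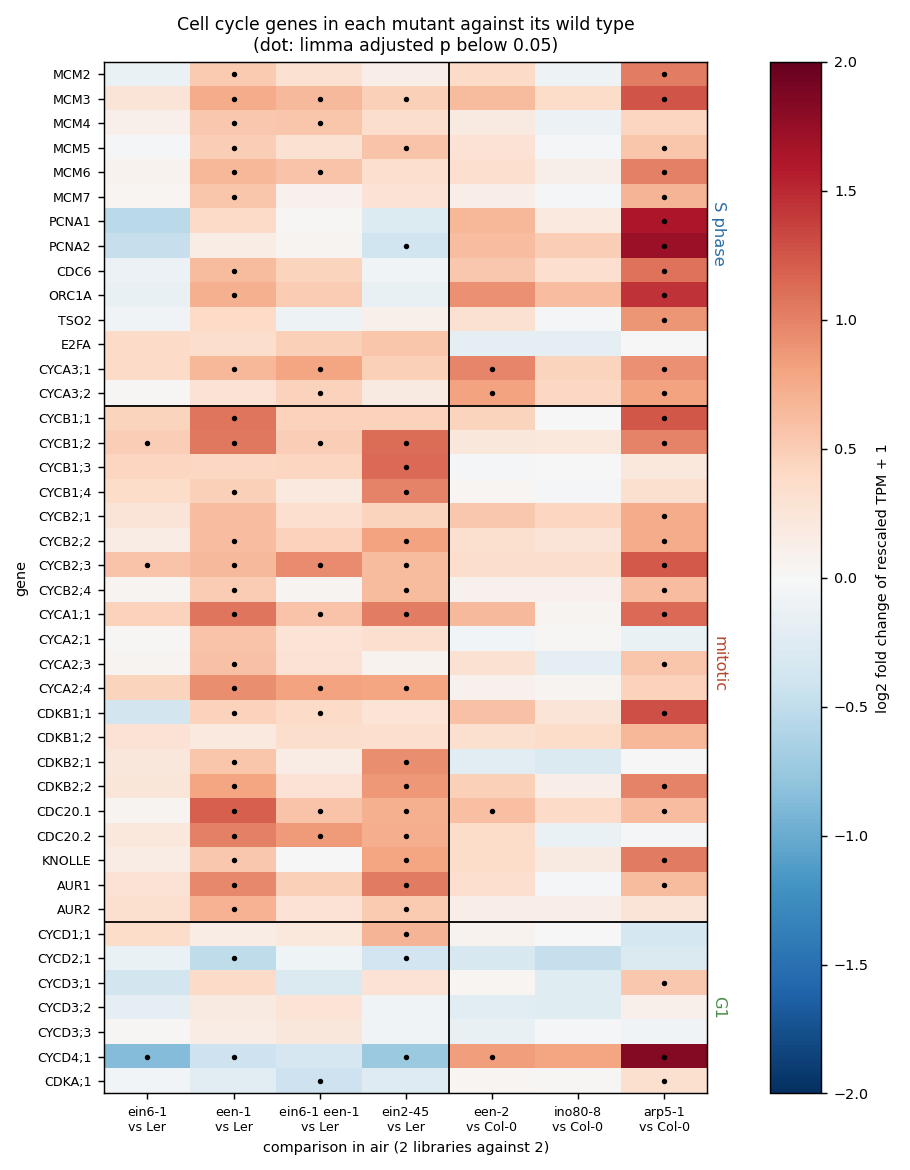
Log2 fold change of each of the 42 members in each mutant against its wild type in air, with members grouped as S phase, mitotic and G1 and 1 column per comparison. S phase and mitotic members are higher almost throughout in *een-1* and *arp5-1*, mitotic members more than S phase members in *ein2-45*, and few members are called in *ein6-1*, *een-2* or *ino80-8*.

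In *ein6-1 een-1* in air, fewer members passed than in *een-1*, and both comparisons share the L*er* libraries. There were 12 members higher and 1 lower, where 18.3% of all genes tested rose and 19.0% fell, so the share of members that rose (12 of 42) is to be read against a high background. S phase members gave 5 calls and mitotic members 7, with medians of 0.45 and 0.39, beside -0.09 in G1 members and 0.02 in all genes. CYCB2;3 had 16.1 and 17.5 TPM in *ein6-1 een-1* and 8.19 and 8.34 TPM in L*er* (log2 fold change 0.94 ± 0.15, adjusted p = 0.0002). CDC20.2 had 14.8 and 16.5 TPM in the double mutant and 8.26 and 8.14 TPM in L*er* (log2 fold change 0.85 ± 0.18, adjusted p = 0.0016), and CDC20.1 15.2 and 15.8 TPM in the double mutant and 9.20 and 11.0 TPM in L*er* (log2 fold change 0.58 ± 0.16, adjusted p = 0.0091). For these mitotic genes the groups did not overlap. Among A cyclins, CYCA2;4 had 3.63 and 4.36 TPM in the double mutant and 1.80 and 1.88 TPM in L*er* (log2 fold change 0.81 ± 0.20, adjusted p = 0.0045), and CYCA1;1 had 7.26 and 7.80 TPM in the double mutant and 4.72 and 4.77 TPM in L*er* (log2 fold change 0.57 ± 0.19, adjusted p = 0.028). The S phase cyclin CYCA3;1 had 6.12 and 6.11 TPM in the double mutant and 2.80 and 3.45 TPM in L*er* (log2 fold change 0.79 ± 0.23, adjusted p = 0.013). Helicase genes took part with MCM3 at 11.1 and 11.8 TPM in the double mutant and 6.38 and 7.60 TPM in L*er* (log2 fold change 0.64 ± 0.15, adjusted p = 0.0045), and MCM6 at 8.85 and 7.71 TPM in the double mutant and 4.82 and 5.74 TPM in L*er* (log2 fold change 0.56 ± 0.19, adjusted p = 0.027). The most abundant members did not follow. TSO2 had 42.7 and 49.1 TPM in the double mutant and 52.1 and 46.2 TPM in L*er* (log2 fold change -0.10, not called), and CDKB2;1 had 27.1 and 23.6 TPM in the double mutant and 22.0 and 23.5 TPM in L*er* (log2 fold change 0.15, not called). CDKA;1 fell, with 58.4 and 64.3 TPM in the double mutant and 75.8 and 88.5 TPM in L*er* (log2 fold change -0.41 ± 0.11, adjusted p = 0.01). This call was lost on deposited TPM, where 25 members rose and 0 fell. There the median log2 fold change of all genes was 0.33, so that count includes a shift of all genes. Leaving out L*er* replicate 1 or 2 gave 6 higher and 1 lower or 7 and 0, and leaving out double mutant replicate 1 or 2 gave 7 and 0 or 5 and 1. Summed RNA of 11 seed storage and embryo genes was 12370.0 to 13860.0 TPM in the double mutant and 2263 to 2402 TPM in L*er*. Shoot meristem markers summed to 11.9 to 12.5 TPM in the double mutant, most of it from CLV1 with a mean of 7.09 TPM, and to 8.54 to 9.53 TPM in L*er*. The part of either in the result was not tested.

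In *ein6-1* in air few members passed. Here 2 members rose and 1 fell, where 2.67% of all genes tested rose and 4.22% fell, with 11 members at an unadjusted p below 0.05. The median log2 fold change was 0.26 over mitotic, -0.01 over S phase and -0.14 over G1 members. Both genes that rose are B cyclins, CYCB2;3 with 13.0 and 12.6 TPM in *ein6-1* and 8.19 and 8.34 TPM in L*er* (log2 fold change 0.57 ± 0.15, adjusted p = 0.029), and CYCB1;2 with 13.3 and 15.5 TPM in *ein6-1* and 10.4 and 9.56 TPM in L*er* (log2 fold change 0.49 ± 0.14, adjusted p = 0.041). The gene that fell was CYCD4;1, with 3.73 and 4.10 TPM in *ein6-1* and 8.17 and 7.82 TPM in L*er* (log2 fold change -0.87 ± 0.13, adjusted p = 0.00083). Both B cyclin calls were lost when any 1 of the 4 libraries was left out (0 higher and 1 lower without L*er* replicate 1 or 2). On deposited TPM 1 member rose and 0 fell. TSO2 had 42.6 and 51.2 TPM in *ein6-1* and 52.1 and 46.2 TPM in L*er*, CDKB2;1 had 24.9 and 28.9 TPM in *ein6-1* and 22.0 and 23.5 TPM in L*er*, and CDKA;1 had 80.5 and 76.9 TPM in *ein6-1* and 75.8 and 88.5 TPM in L*er*, all without a call. Seed storage genes summed to 88.0 to 95.8 TPM in *ein6-1* and 2263 to 2402 TPM in L*er*, and shoot meristem markers to 12.3 to 14.4 TPM in *ein6-1* and 8.54 to 9.53 TPM in L*er*, and their part in the result was not tested.

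In *ein2-45* in air most of the genes that rose were mitotic, although the difference between phase groups was not tested. There were 18 members higher and 3 lower, where 11.8% of all genes tested rose and 11.2% fell. Of the mitotic members 15 of 21 rose and all 21 had a positive log2 fold change, with a median of 0.73. The S phase members gave 2 higher and 1 lower with a median of 0.23, and the G1 members 1 higher and 2 lower with a median of -0.07, beside 0.01 over all genes tested. Without L*er* replicate 1 the counts were 11 higher and 1 lower, and without *ein2-45* replicate 2 they were 12 and 1. On deposited TPM 17 members rose and 0 fell, with a median log2 fold change of 0.18 over all genes.

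The B1 cyclins were prominent among the genes that rose in *ein2-45*. CYCB1;3 had 9.91 and 10.8 TPM in *ein2-45* and 5.02 and 3.47 TPM in L*er* (log2 fold change 1.13 ± 0.18, adjusted p = 0.00036). CYCB1;2 had 22.5 and 23.1 TPM in *ein2-45* and 10.4 and 9.56 TPM in L*er* (log2 fold change 1.12 ± 0.14, adjusted p = 3.8e-05), and CYCB1;4 19.8 and 19.9 TPM in *ein2-45* and 8.91 and 10.1 TPM in L*er* (log2 fold change 0.99 ± 0.14, adjusted p = 0.00018). The lowest expressed B1 cyclin, CYCB1;1, had 3.19 and 5.48 TPM in *ein2-45* and 2.67 and 2.87 TPM in L*er* and did not pass (log2 fold change 0.47 ± 0.22, adjusted p = 0.14). AUR1 had 26.1 and 27.7 TPM in *ein2-45* and 12.9 and 12.2 TPM in L*er* (log2 fold change 1.04 ± 0.20, adjusted p = 0.0015), and CYCA1;1 had 11.7 and 9.77 TPM in *ein2-45* and 4.72 and 4.77 TPM in L*er* (log2 fold change 1.02 ± 0.19, adjusted p = 0.0012). Both CDKB2 kinase genes rose, CDKB2;1 with 43.3 and 45.2 TPM in *ein2-45* and 22.0 and 23.5 TPM in L*er* (log2 fold change 0.93 ± 0.15, adjusted p = 0.00033) and CDKB2;2 with 17.97 and 19.9 TPM in *ein2-45* and 10.1 and 9.76 TPM in L*er* (log2 fold change 0.87 ± 0.19, adjusted p = 0.0035). The CDKB1 kinase genes did not pass, with log2 fold changes of 0.27 and 0.34. CYCB2;2 had 9.93 and 11.1 TPM in *ein2-45* and 5.50 and 5.64 TPM in L*er* (log2 fold change 0.81 ± 0.19, adjusted p = 0.0057).

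Of the S phase genes in *ein2-45*, 11 of 14 had no call. PCNA2 fell, with 21.6 and 23.6 TPM in *ein2-45* and 30.3 and 30.1 TPM in L*er* (log2 fold change -0.40 ± 0.14, adjusted p = 0.048), while MCM5 and MCM3 rose by log2 fold changes of 0.57 and 0.48. TSO2 had 49.7 and 56.4 TPM in *ein2-45* and 52.1 and 46.2 TPM in L*er* and did not pass (log2 fold change 0.11). CYCD1;1 had 29.5 and 29.6 TPM in *ein2-45* and 18.9 and 17.4 TPM in L*er* (log2 fold change 0.67 ± 0.18, adjusted p = 0.013). Other D cyclins went the other way. CYCD4;1 had 4.84 and 3.97 TPM in *ein2-45* and 8.17 and 7.82 TPM in L*er* (log2 fold change -0.74 ± 0.13, adjusted p = 0.00099), and CYCD2;1 had 14.8 and 16.4 TPM in *ein2-45* and 22.2 and 19.3 TPM in L*er* (log2 fold change -0.39 ± 0.13, adjusted p = 0.047). CDKA;1 had 71.2 and 66.2 TPM in *ein2-45* and 75.8 and 88.5 TPM in L*er* (log2 fold change -0.25, not called). The 3 falls were lost on deposited TPM, and those of PCNA2 and CYCD2;1 also when any 1 of the 4 libraries was left out. Shoot meristem markers summed to 15.3 to 15.5 TPM in *ein2-45*, most of it from CLV1 with a mean of 8.12 TPM, and to 8.54 to 9.53 TPM in L*er*. Seed storage genes summed to 218 to 376 TPM in *ein2-45* and 2263 to 2402 TPM in L*er*. The part of either in the result was not tested.

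The balance of both programs was also read library by library, as the mean log2 difference of a phase group from its wild type in air. The mitotic mean minus the S phase mean was 0.57 and 0.46 in *ein2-45* in air, and 0.38 and 0.59 in *ein2-45* after ET. It was 0.12 and 0.29 in *een-1* in air and -0.17 and -0.09 in *een-1* after ET, 0.24 and 0.28 in *ein6-1* in air and -0.05 and 0.24 in *ein6-1* after ET, and 0.07 and 0.03 in *ein6-1 een-1* in air and 0.02 and -0.07 in *ein6-1 een-1* after ET. In L*er* after ET it was -0.18 and -0.21. In the Col-0 background it was -0.16 and -0.22 in *een-2*, -0.02 and -0.12 in *ino80-8* and -0.33 and -0.30 in *arp5-1*, beside -0.08 and 0.08 in the Col-0 libraries themselves. These means describe the 28 libraries and carry no test.

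**Figure D3:**
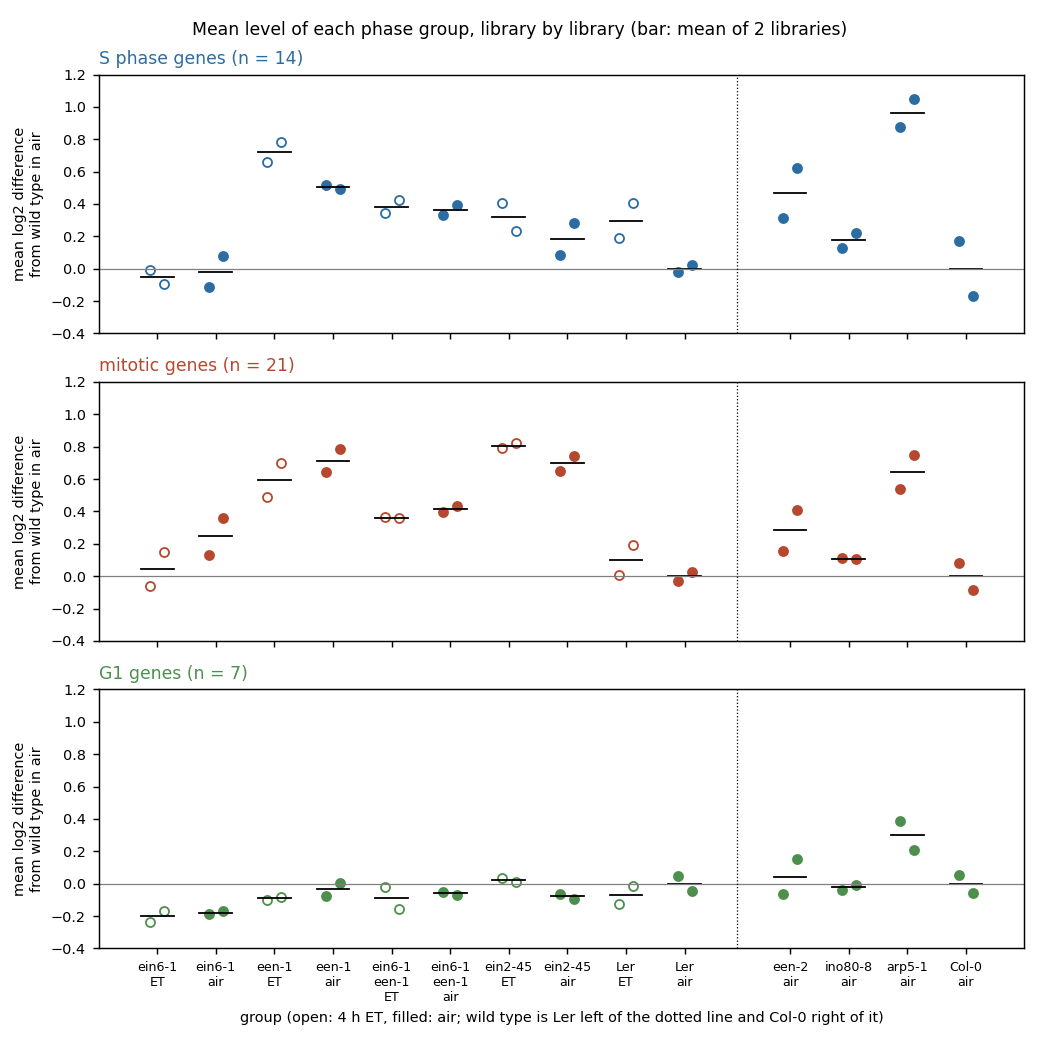
Mean log2 difference of S phase, mitotic and G1 members from the wild type in air, 1 point per library, open after ET and filled in air, with the mutants left of their wild type. In air, mitotic means lie above S phase means in all mutant libraries of the L*er* background, most in *ein2-45*. They lie below S phase means in all mutant libraries of the Col-0 background, most in *arp5-1*. After ET they lie above in *ein2-45* and below in L*er* and *een-1*.

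In *arp5-1*, most S phase genes, most mitotic genes and the D cyclin CYCD4;1 rose. Here 28 members rose and 0 fell, where 25.9% of all genes tested rose and 25.2% fell. The called members were 12 of 14 in S phase, 13 of 21 in mitosis and 3 of 7 in G1, with median log2 fold changes of 0.97, 0.63 and 0.10, beside 0.00 over all genes. Without *arp5-1* replicate 2 the count was 18 higher and 0 lower. On deposited TPM 23 members rose and 2 fell, and without rRNA and organelle genes 24 rose and 1 fell. Both *arp5-1* libraries lay above both Col-0 libraries in 33 members and below in 2, again without a count over all genes.

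On this log2(TPM + 1) scale the sliding clamp genes had the largest changes of the S phase group. PCNA2 had 66.9 and 62.9 TPM in *arp5-1* and 20.96 and 16.9 TPM in Col-0 (log2 fold change 1.73 ± 0.18, adjusted p = 9.5e-05), and PCNA1 had 40.9 and 39.8 TPM in *arp5-1* and 16.4 and 9.32 TPM in Col-0 (log2 fold change 1.62 ± 0.27, adjusted p = 0.0011). ORC1A had 3.30 and 4.12 TPM in *arp5-1* and 1.21 and 0.346 TPM in Col-0 (log2 fold change 1.44 ± 0.29, adjusted p = 0.0029). MCM3 had 13.6 and 16.0 TPM in *arp5-1* and 6.93 and 4.46 TPM in Col-0 (log2 fold change 1.26 ± 0.21, adjusted p = 0.001), and TSO2 had 94.8 and 95.1 TPM in *arp5-1* and 58.5 and 44.7 TPM in Col-0 (log2 fold change 0.88 ± 0.17, adjusted p = 0.0026). These clamp, origin, helicase and nucleotide genes were thus all above Col-0 with no overlap of libraries. MCM4 and E2FA were the S phase members without a call, at log2 fold changes of 0.43 and -0.003. Among mitotic genes, CDKB1;1 had 23.9 and 25.5 TPM in *arp5-1* and 11.6 and 7.77 TPM in Col-0 (log2 fold change 1.29 ± 0.18, adjusted p = 0.00044). CYCB1;1 had 6.96 and 8.07 TPM in *arp5-1* and 3.44 and 1.88 TPM in Col-0 (log2 fold change 1.25 ± 0.25, adjusted p = 0.0027), and CYCB2;3 had 19.4 and 18.9 TPM in *arp5-1* and 7.24 and 8.07 TPM in Col-0 (log2 fold change 1.22 ± 0.14, adjusted p = 0.00014). KNOLLE had 44.2 and 57.9 TPM in *arp5-1* and 25.1 and 23.1 TPM in Col-0 (log2 fold change 1.04 ± 0.19, adjusted p = 0.0016). Not every mitotic gene moved, since CDC20.2 and the kinase gene CDKB2;1 gave log2 fold changes of -0.02 and -0.01 without a call.

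CYCD4;1, a D cyclin expressed in root pericycle and stomatal lineage, showed the largest change of all members in *arp5-1* on the log2(TPM + 1) scale, which understates low genes such as ORC1A. It had 13.6 and 11.7 TPM in *arp5-1*, 5.34 and 6.30 TPM in *een-2*, 4.81 and 6.50 TPM in *ino80-8* and 2.65 and 2.96 TPM in Col-0 (log2 fold change 1.84 ± 0.19, adjusted p = 8.4e-05 for *arp5-1*). All 6 mutant libraries of the Col-0 background were therefore above both wild type libraries for this gene. In the L*er* background the same gene had 3.73 and 4.10 TPM in *ein6-1*, 5.67 and 5.85 TPM in *een-1*, 6.03 and 6.20 TPM in *ein6-1 een-1*, 4.84 and 3.97 TPM in *ein2-45* and 8.17 and 7.82 TPM in L*er*, so that every mutant library in air was below L*er*. CDKA;1 rose a little in *arp5-1*, with 83.4 and 86.4 TPM in *arp5-1* and 69.2 and 66.3 TPM in Col-0 (log2 fold change 0.32 ± 0.10, adjusted p = 0.025), and CYCD3;1 also passed (log2 fold change 0.55 ± 0.19, adjusted p = 0.041). Seed storage genes summed to 4352 to 4427 TPM in *arp5-1* and 70.6 to 82.9 TPM in Col-0, root meristem markers to 47.5 to 52.5 TPM in *arp5-1* and 67.0 to 67.4 TPM in Col-0, and shoot meristem markers to 12.2 to 17.0 TPM in *arp5-1* and 15.1 to 21.2 TPM in Col-0. Within the root list, the quiescent center gene WOX5 had 9.42 and 6.67 TPM in *arp5-1* and 1.17 and 2.37 TPM in Col-0, while SCR had 25.6 and 27.7 TPM in *arp5-1* and 41.7 and 40.2 TPM in Col-0. The part of these markers in the result was not tested.

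**Figure D4:**
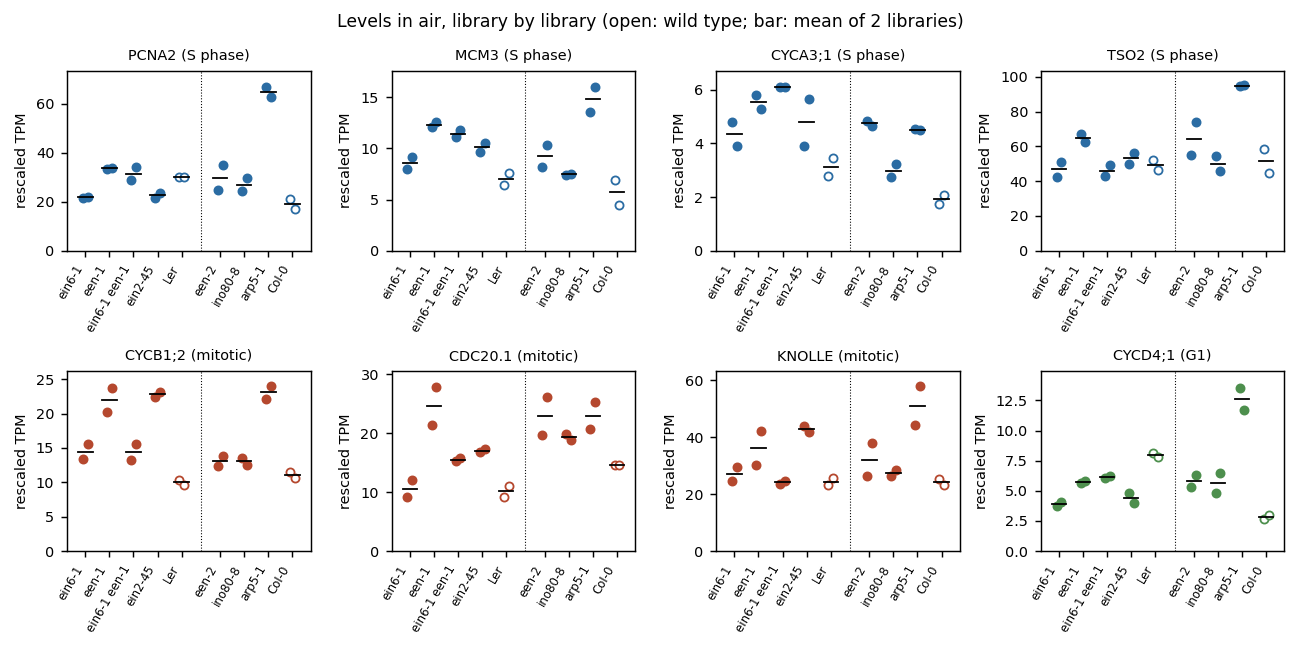
Rescaled TPM of PCNA2, MCM3, CYCA3;1, TSO2, CYCB1;2, CDC20.1, KNOLLE and CYCD4;1 in each library in air, mutants left of their wild type, with 1 point per library and a bar at the group mean. CYCD4;1 is above Col-0 in all 6 mutant libraries of the Col-0 background and below L*er* in all 8 mutant libraries of the L*er* background.

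In *een-2*, a second allele of EEN, 4 members rose and 0 fell, where 3.9% of all genes tested rose and 5.25% fell, with 15 members at an unadjusted p below 0.05. Median log2 fold changes were 0.46 over S phase, 0.33 over mitotic and 0.03 over G1 members. Both A3 cyclin genes rose, CYCA3;1 with 4.84 and 4.66 TPM in *een-2* and 1.74 and 2.09 TPM in Col-0 (log2 fold change 0.98 ± 0.18, adjusted p = 0.016), and CYCA3;2 with 31.3 and 29.6 TPM in *een-2* and 17.6 and 16.3 TPM in Col-0 (log2 fold change 0.81 ± 0.13, adjusted p = 0.0096). The D cyclin gene CYCD4;1 rose too (log2 fold change 0.84 ± 0.19, adjusted p = 0.029), and CDC20.1 had 19.7 and 26.2 TPM in *een-2* and 14.7 and 14.6 TPM in Col-0 (log2 fold change 0.60 ± 0.16, adjusted p = 0.0499). The calls rested on few libraries, since 2 members rose without Col-0 replicate 1, 0 without Col-0 replicate 2 and 1 without *een-2* replicate 2. TSO2 had 55.01 and 73.8 TPM in *een-2* and 58.5 and 44.7 TPM in Col-0, KNOLLE had 26.2 and 37.8 TPM in *een-2* and 25.1 and 23.1 TPM in Col-0, and CDKA;1 had 68.0 and 71.2 TPM in *een-2* and 69.2 and 66.3 TPM in Col-0, none with a call. The members called in *een-2* were set beside *een-1*, which was measured against another wild type in a separately scaled table. CDC20.1 had log2 fold changes of 0.60 in *een-2* and 1.20 in *een-1*, CYCA3;1 0.98 in *een-2* and 0.67 in *een-1*, and CYCA3;2 0.81 in *een-2* and 0.29 in *een-1*. CYCD4;1 differed in sign between both alleles, at 0.84 in *een-2* and -0.41 in *een-1*, a difference that was not tested across the tables. Seed storage genes summed to 660.5 to 1139 TPM in *een-2* and 70.6 to 82.9 TPM in Col-0. Root meristem markers summed to 52.2 to 56.4 TPM in *een-2* and 67.0 to 67.4 TPM in Col-0. Most of the root sum came from SCR, with means of 31.71 TPM in *een-2* and 40.96 TPM in Col-0. Within the root list, log2 fold changes in *een-2* were -0.36 for SCR, -0.18 for SHR and 0.08 for WOX5, none called. The lower sum was thus not shared by WOX5. The part of these markers in the result was not tested.

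In *ino80-8*, whose replicate 1 carries the replicate number 2 in the table's header and was matched by its library code, limma called 0 members higher and 0 lower, where 1.41% of all genes tested rose and 1.49% fell, and 7 members had an unadjusted p below 0.05. Those with the lowest p by limma were CYCD4;1 (log2 fold change 0.80, adjusted p = 0.063), CYCD2;1 (log2 fold change -0.46, adjusted p = 0.085) and CYCA3;2 (log2 fold change 0.41, adjusted p = 0.15). CYCA3;2 had 25.2 and 20.5 TPM in *ino80-8* and 17.6 and 16.3 TPM in Col-0. CYCD2;1 had 14.7 and 14.3 TPM in *ino80-8* and 20.9 and 19.8 TPM in Col-0. TSO2 had 54.2 and 45.7 TPM in *ino80-8* and 58.5 and 44.7 TPM in Col-0, KNOLLE 26.2 and 28.4 TPM in *ino80-8* and 25.1 and 23.1 TPM in Col-0, and CDKA;1 67.2 and 70.3 TPM in *ino80-8* and 69.2 and 66.3 TPM in Col-0, and none was called. Median log2 fold changes were 0.15 over S phase, 0.08 over mitotic and -0.04 over G1 members. Seed storage genes summed to 1079 to 1425 TPM in *ino80-8* and 70.6 to 82.9 TPM in Col-0, although no member was called. Their part in the result was not tested.

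The subunits were also set against the ATPase mutant. In *een-2* against *ino80-8*, limma called 0 members higher and 0 lower, where 0.437% of all genes tested were higher and 1.43% lower, and 5 members had an unadjusted p below 0.05. The lowest p values belonged to CYCA3;2 (log2 difference 0.41, adjusted p = 0.16), CYCA2;3 (0.50, adjusted p = 0.14) and CYCA1;1 (0.60, adjusted p = 0.14), all A cyclins. In *arp5-1* against *ino80-8*, 23 members were higher and 0 lower, where 22.8% of all genes tested were higher and 22.1% lower. These were 11 S phase, 9 mitotic and 3 G1 members, with median log2 differences of 0.80, 0.50 and 0.30. PCNA1 had 40.9 and 39.8 TPM in *arp5-1* and 11.0 and 18.7 TPM in *ino80-8* (log2 difference 1.43 ± 0.27, adjusted p = 0.0027), and PCNA2 had 66.9 and 62.9 TPM in *arp5-1* and 24.2 and 29.9 TPM in *ino80-8* (log2 difference 1.24 ± 0.18, adjusted p = 0.00073). MCM2 had 12.7 and 16.5 TPM in *arp5-1* and 5.42 and 6.79 TPM in *ino80-8* (log2 difference 1.13 ± 0.26, adjusted p = 0.0066), and TSO2 had 94.8 and 95.1 TPM in *arp5-1* and 54.2 and 45.7 TPM in *ino80-8* (log2 difference 0.92 ± 0.17, adjusted p = 0.0026). These clamp, helicase and nucleotide supply genes thus separated both mutants without overlap of libraries, while the helicase gene MCM4 was not called. Among mitotic genes, CYCB1;1 had 6.96 and 8.07 TPM in *arp5-1* and 2.86 and 2.32 TPM in *ino80-8* (log2 difference 1.25 ± 0.25, adjusted p = 0.0034) and CYCA1;1 had 10.0 and 12.6 TPM in *arp5-1* and 5.38 and 4.26 TPM in *ino80-8* (log2 difference 1.08 ± 0.18, adjusted p = 0.0015). CDKB1;1 had 23.9 and 25.5 TPM in *arp5-1* and 11.5 and 11.6 TPM in *ino80-8* (log2 difference 1.04 ± 0.18, adjusted p = 0.0019) and KNOLLE had 44.2 and 57.9 TPM in *arp5-1* and 26.2 and 28.4 TPM in *ino80-8* (log2 difference 0.87 ± 0.19, adjusted p = 0.005). In G1, CYCD4;1 had 13.6 and 11.7 TPM in *arp5-1* and 4.81 and 6.50 TPM in *ino80-8* (log2 difference 1.04 ± 0.19, adjusted p = 0.0022) and CDKA;1 had 83.4 and 86.4 TPM in *arp5-1* and 67.2 and 70.3 TPM in *ino80-8* (log2 difference 0.30 ± 0.10, adjusted p = 0.036). All 23 members called were higher in both *arp5-1* libraries than in both *ino80-8* libraries. A call from 2 libraries per group makes this likely, and it was not counted over all genes, so it adds nothing to the calls. Without *arp5-1* replicate 2, 13 members were higher and 0 lower. This comparison and that of *arp5-1* with Col-0 share the *arp5-1* libraries.

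A 4 hr ET treatment moved few members in any genotype. In L*er*, 2 members rose and 1 fell, where 8.81% of all genes tested rose and 12.9% fell, and 10 members had an unadjusted p below 0.05. Median log2 fold changes were 0.32 over S phase, 0.11 over mitotic and 0.04 over G1 members, beside 0.02 over all genes. Both genes that rose act in S phase. The A3 cyclin CYCA3;2 had 28.1 and 30.6 TPM after ET and 23.5 and 20.5 TPM in air (log2 fold change 0.40 ± 0.12, adjusted p = 0.021), and MCM3 had 9.44 and 11.3 TPM after ET and 6.38 and 7.60 TPM in air (log2 fold change 0.51 ± 0.15, adjusted p = 0.029). TSO2, at 63.5 and 66.0 TPM after ET and 52.1 and 46.2 TPM in air, came close without passing (log2 fold change 0.39 ± 0.14, adjusted p = 0.056). Without L*er* ET replicate 2, 0 members rose and 1 fell, and without *ein6-1* ET replicate 2, which only shares in the estimate of the spread, 4 rose and 1 fell. On deposited TPM 4 rose and 0 fell, and without rRNA and organelle genes 5 rose and 1 fell. The median log2 fold changes of all genes were 0.25 and 0.14 in these settings. CDKB2;1 had 24.3 and 23.3 TPM after ET and 22.0 and 23.5 TPM in air, and CDKA;1 had 81.4 and 70.7 TPM after ET and 75.8 and 88.5 TPM in air, neither called. Shoot meristem markers summed to 12.2 to 13.3 TPM after ET and 8.54 to 9.53 TPM in air, and root meristem markers to 42.5 to 46.7 TPM after ET and 48.0 to 49.1 TPM in air, and their part in the result was not tested.

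CYCD1;1 was the member that fell with ET, and it fell in 3 genotypes. It had 8.12 and 11.7 TPM after ET and 18.9 and 17.4 TPM in air in L*er* (log2 fold change -0.83 ± 0.18, adjusted p = 0.0037). In *ein6-1* it had 15.3 and 9.50 TPM after ET and 24.7 and 22.5 TPM in air (log2 fold change -0.91 ± 0.18, adjusted p = 0.0024), and in *een-1* 9.59 and 11.5 TPM after ET and 20.8 and 19.9 TPM in air (log2 fold change -0.89 ± 0.18, adjusted p = 0.003). The libraries after ET were below those in air in all 3 genotypes. In *ein6-1 een-1* it had 20.4 and 19.2 TPM after ET and 22.3 and 20.19 TPM in air (log2 fold change -0.09 ± 0.18, adjusted p = 0.99). In *ein2-45* it had 28.4 and 31.1 TPM after ET and 29.5 and 29.6 TPM in air (log2 fold change 0.01 ± 0.18, adjusted p = 1). In *ein6-1*, CYCD2;1 also rose, with 24.8 and 27.6 TPM after ET and 17.2 and 20.3 TPM in air (log2 fold change 0.46 ± 0.13, adjusted p = 0.028). This gave 1 member higher and 1 lower in *ein6-1*, where 6.76% of all genes tested rose and 8.99% fell, with 9 members at an unadjusted p below 0.05. Leaving out *ein6-1* ET replicate 1 gave 2 higher and 3 lower, and deposited TPM gave 0 higher and 2 lower. In *een-1*, 0 members rose and 1 fell, where 4.92% of all genes tested rose and 9.62% fell, and 5 members had an unadjusted p below 0.05. Without *een-1* ET replicate 2, or without *ein6-1* ET replicate 2, 2 members fell in *een-1*. On deposited TPM 0 members were called there. The fall of CYCD1;1 did not pass on deposited TPM in L*er* (log2 fold change -0.58, adjusted p = 0.15) or in *een-1* (where it was -0.86, adjusted p = 0.068), nor in L*er* without ET replicate 1.

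**Figure D5:**
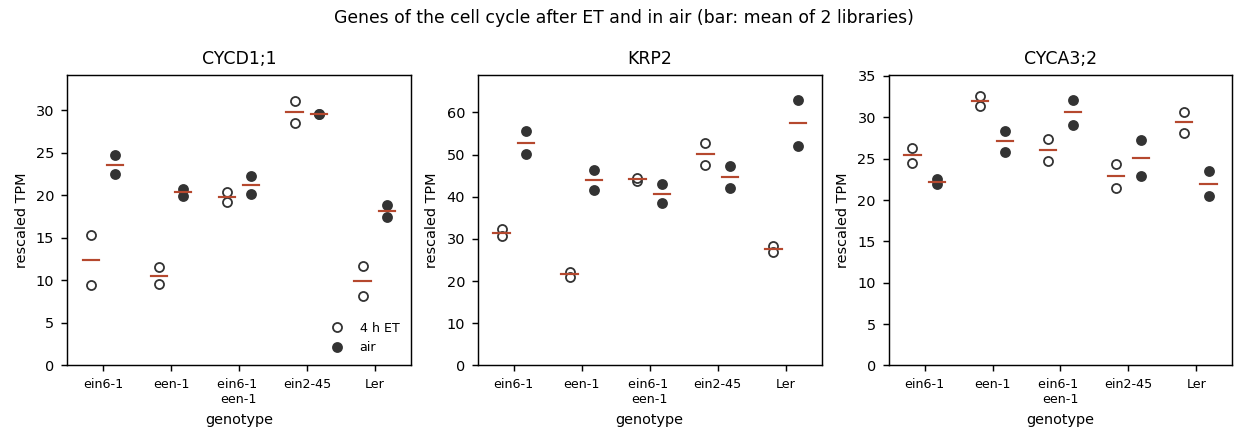
Rescaled TPM of CYCD1;1, of the CDK inhibitor gene KRP2 and of CYCA3;2 in each L*er* background library, with ET left of air in each genotype. CYCD1;1 and KRP2 are lower after ET than in air in L*er*, *ein6-1* and *een-1*. In *ein6-1 een-1* and *ein2-45* the CYCD1;1 values overlap and the KRP2 values are slightly higher after ET.

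TSO2 had 49.1 and 64.8 TPM after ET and 42.6 and 51.2 TPM in air in *ein6-1*, 77.9 and 81.9 TPM after ET and 67.3 and 62.4 TPM in air in *een-1*, 52.7 and 50.6 TPM after ET and 42.7 and 49.1 TPM in air in *ein6-1 een-1*, and 63.4 and 51.7 TPM after ET and 49.7 and 56.4 TPM in air in *ein2-45*, with no call. CDKB2;1 had 21.4 and 32.4 TPM after ET and 24.9 and 28.9 TPM in air in *ein6-1*, 32.3 and 34.6 TPM after ET and 32.7 and 34.8 TPM in air in *een-1*, 23.7 and 26.6 TPM after ET and 27.1 and 23.6 TPM in air in *ein6-1 een-1*, and 48.7 and 47.2 TPM after ET and 43.3 and 45.2 TPM in air in *ein2-45*. CDKA;1 had 72.4 and 85.6 TPM after ET and 80.5 and 76.9 TPM in air in *ein6-1*, 74.5 and 70.2 TPM after ET and 74.6 and 67.0 TPM in air in *een-1*, 67.2 and 60.7 TPM after ET and 58.4 and 64.3 TPM in air in *ein6-1 een-1*, and 74.8 and 72.5 TPM after ET and 71.2 and 66.2 TPM in air in *ein2-45*. Neither kinase gene was called in these genotypes. In *ein6-1 een-1*, limma called 0 members higher and 0 lower after ET, where 0.447% of all genes tested rose and 0.17% fell, and 0 members had an unadjusted p below 0.05. Its lowest p values were those of PCNA2 (log2 fold change -0.27, adjusted p = 0.69), MCM5 (0.29, adjusted p = 0.69) and CYCA3;2 (-0.22, adjusted p = 0.68). In *ein2-45*, 0 members were called in either direction, where 0.0% of all genes tested rose and 0.0% fell, and limma gave an unadjusted p below 0.05 to 1 member and to 628 genes in all. The lowest were PCNA1 (log2 fold change 0.40, adjusted p = 1), CDC6 (0.30, adjusted p = 1) and CYCD2;1 (0.21, adjusted p = 1).

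Whether the ET response of a mutant differed from that of L*er* was tested as an interaction. The differences share the L*er* libraries. For *ein6-1* 0 members passed in either direction, where 0.00971% of all genes tested were higher and 0.00486% lower, with 6 members at an unadjusted p below 0.05. MCM3 had the lowest p there, with an interaction of -0.82 ± 0.22 (adjusted p = 0.3), followed by CYCB2;3 (-0.64, adjusted p = 0.36) and MCM6 (-0.67, adjusted p = 0.42). For *een-1* 0 members passed, where 0.0% of all genes tested were higher and 0.00486% lower, and 0 members had an unadjusted p below 0.05 by limma. The lowest p values there were those of CYCB2;3 (-0.38, adjusted p = 0.84), CDKB1;1 (-0.35, adjusted p = 0.87) and AUR1 (-0.42, adjusted p = 0.93). For *ein6-1 een-1* 0 members were higher and 1 lower, where 6.69% of all genes tested were higher and 2.41% lower, with 4 members at an unadjusted p below 0.05. The member was CYCA3;2, with 27.4 and 24.7 TPM after ET and 32.1 and 29.1 TPM in air in *ein6-1 een-1* and an interaction of -0.63 ± 0.16 (adjusted p = 0.024). It did not pass without L*er* air replicate 2, L*er* ET replicate 2, double mutant air replicate 1 or double mutant ET replicate 2. For *ein2-45* 1 member was higher and 0 lower, where 6.46% of all genes tested were higher and 2.9% lower, with 2 members at an unadjusted p below 0.05. The member was CYCD1;1, with an interaction of 0.84 ± 0.25 (adjusted p = 0.049). This call held in 5 of 17 alternatives and was lost when any 1 of the compared libraries except L*er* ET replicate 2 was left out. In *ein6-1 een-1* the interaction of the same gene was 0.74 ± 0.25 (adjusted p = 0.086). The interaction of CYCA3;2 in *ein2-45* was -0.52 ± 0.16 and did not pass (adjusted p = 0.057).

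Other genes of the pathway were taken from a list of 46 loci outside the 42. Among 13 licensing and nucleotide supply genes, 5 rose in *een-1*, 5 in *ein6-1 een-1*, 3 in *ein2-45* and 8 in *arp5-1* against wild type, and 0 fell in these mutants. Over all genes tested, 11.0% rose in *een-1*, 18.3% in *ein6-1 een-1*, 11.8% in *ein2-45* and 25.9% in *arp5-1*. The shares that fell were 13.5% in *een-1*, 19.0% in *ein6-1 een-1*, 11.2% in *ein2-45* and 25.2% in *arp5-1*. The counts of each list are to be read against these shares. Among 12 further mitotic genes, 7 rose in *een-1*, 7 in *ein2-45* and 5 in *arp5-1*, with median log2 fold changes of 0.58, 0.77 and 0.39. The mitotic transcription factor gene MYB3R4 had 5.00 and 5.61 TPM in *ein2-45* and 1.88 and 2.17 TPM in L*er* (log2 fold change 1.06 ± 0.16, adjusted p = 0.00028). Among 8 genes of the retinoblastoma and E2F/DP group, 2 rose in *een-1*, 0 in *ein2-45* and 2 in *arp5-1*, the last of these close to the share of all genes. Genes that hold division back or end it, 13 in all, had calls in both directions, as had the genes tested as a whole. They gave 1 higher and 2 lower in *een-1*, 2 and 4 in *ein6-1 een-1*, 1 and 3 in *ein2-45*, and 5 and 2 in *arp5-1*. In *arp5-1* the CDK inhibitor gene KRP7 had 9.44 and 10.8 TPM against 1.92 and 1.48 TPM in Col-0 (log2 fold change 2.04 ± 0.30, adjusted p = 0.0005), while SIM, an inhibitor of mitosis, had 80.03 and 69.1 TPM against 200.3 and 189.7 TPM in Col-0 (log2 fold change -1.38 ± 0.12, adjusted p = 4.3e-05).

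Among the inhibitors, KRP2 fell with ET in the same genotypes as CYCD1;1. It had 28.4 and 26.9 TPM after ET and 52.1 and 63.0 TPM in air in L*er* (log2 fold change -1.02 ± 0.11, adjusted p = 9.4e-06), 32.4 and 30.6 TPM after ET and 55.6 and 50.01 TPM in air in *ein6-1* (log2 fold change -0.73 ± 0.11, adjusted p = 0.00032), and 22.3 and 20.9 TPM after ET and 41.7 and 46.3 TPM in air in *een-1* (a log2 change of -0.99 ± 0.11, adjusted p = 1.8e-05). In *ein6-1 een-1* it had 43.8 and 44.5 TPM after ET and 43.0 and 38.5 TPM in air, and in *ein2-45* 52.6 and 47.5 TPM after ET and 47.2 and 41.98 TPM in air. The interactions with the L*er* response were 1.14 ± 0.16 for *ein6-1 een-1* (adjusted p = 0.00027) and 1.19 ± 0.16 for *ein2-45* (adjusted p = 0.00018). The large subunit gene of ribonucleotide reductase, RNR1, had 16.4 and 19.2 TPM after ET and 10.2 and 11.2 TPM in air in L*er* (log2 fold change 0.68 ± 0.13, adjusted p = 0.0018).

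Counted over all comparisons, 37 of the 42 members passed in at least 1 of 7 mutants against wild type, where 73.1% of all genes tested did, and 4 passed in at least 1 of 5 ET comparisons within a genotype, where 30.3% of all genes tested did. The members called in neither were CYCA2;1, CDKB1;2, E2FA, CYCD3;2 and CYCD3;3.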

How the data were processed

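RNA-seq libraries were mapped with STAR 2.6.0c and quantified with RSEM 1.3.0, per the submitters' processing notes, and the authors deposited TPM per gene in 2 tables, 1 for each background. Library depth is not given in the sources used here, so precision rests on replicates. TPM was divided by a median-of-ratios factor per library (0.636 to 1.14 in the L*er* table and 0.896 to 1.06 in the Col-0 table), filtered at 1 TPM in at least 2 libraries (20592 and 20152 genes) and tested on the log2(TPM + 1) scale, which understates changes of low genes, with limma 3.58.1 in R 4.3.3. Each table had 1 model over all its groups, Benjamini-Hochberg adjustment covered all genes tested, and tests were 2-sided. The scripts were tested on simulated data. The 2 replicates per group are labelled as biological. The tables were scaled separately. In the Col-0 table, 4 columns of libraries outside these samples were not used.

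The 42 members and all gene lists were chosen with earlier results of these data known. Members given library by library were the called ones with the largest absolute log2 fold change, up to 8 in each direction, and the most abundant member of each phase group. Where none was called, up to 3 with the lowest p were given. Alternatives were TPM as deposited, leaving out rRNA and organelle genes, pseudocounts of 0.1 and 5, no minimum or a minimum of 5 TPM, a replicate block, a fit of the compared groups only, and leaving out each library. Leaving *ein6-1* ET replicate 2 out of the other comparisons was chosen after seeing the data. Promoter windows were read from TAIR10.1 with gene starts from RefSeq.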

Additional observations from a re-analysis of the deposited data

Results flagged for a closer look

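By the interaction test, 2 of the 42 members responded to ET otherwise in a mutant than in L*er*. In *ein6-1 een-1* 1 member was lower, where 2.41% of all genes tested were lower. In *ein2-45* 1 member was higher, where 6.46% of all genes tested were higher. These counts therefore do not set the members apart from all genes. The ET response of CYCA3;2 was lower in *ein6-1 een-1* than in L*er* (interaction -0.63 on the log2 scale, adjusted p = 0.024 by limma), and the call held in 12 of 17 alternatives. In *ein2-45* its interaction was -0.52, just outside the threshold (adjusted p = 0.057 by limma). CYCD1;1 fell with ET in L*er* and not in *ein2-45* (interaction 0.84, adjusted p = 0.049 by limma), and the call held in 5 of 17 alternatives.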

How the results depend on the processing

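Of 130 named member results, 67 passed the test, of which 35 passed under every alternative and 32 were lost under at least 1, and 0 reversed. On TPM as deposited, the number of members called was 0 for ET in *een-1*, 1 for *ein6-1*, 25 for *ein6-1 een-1*, and 0 for the ET response of *ein6-1 een-1* or *ein2-45* against that of L*er*. Without rRNA and organelle genes it was 6 for ET in L*er*, 1 for ET in *ein6-1* and 24 for *ein6-1 een-1*. Fitting only the compared groups gave 1 for ET in L*er*, 0 for ET in *ein6-1*, 0 for *ein6-1* and 0 for *een-2*. With a minimum of 5 TPM, ET in *een-1* gave 2 and the ET response of *ein2-45* 2. With no minimum, the ET response of *ein2-45* gave 0 and *een-2* 2, and with a pseudocount of 0.1 the ET response of *ein2-45* gave 0. Nothing in the labels pairs libraries of the same number, and the deviations of same-numbered libraries correlated by -0.095 to 0.142 over 14 comparisons. With the replicate block, ET in *een-1* gave 2 members and the ET response of *ein2-45* 0. The cause of these differences was not tested.

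Leaving out 1 library at a time gave 1 to 5 members called for ET in L*er*, 2 to 5 in *ein6-1*, 1 to 2 in *een-1* and 0 in *ein6-1 een-1* and in *ein2-45*. Against wild type in air it gave 1 to 4 in *ein6-1*, 10 to 29 in *een-1*, 6 to 14 in *ein6-1 een-1*, 12 to 21 in *ein2-45*, 0 to 3 in *een-2*, 0 in *ino80-8* and 18 to 27 in *arp5-1*. For *arp5-1* against *ino80-8* it gave 13 to 20, and for *een-2* against *ino80-8* 0. The test of the ET response against L*er* called 0 to 2 members in *ein6-1*, 0 in *een-1*, 0 to 2 in *ein6-1 een-1* and 0 to 2 in *ein2-45*. In air, the upper ends for *een-1* and *ein6-1 een-1* came from leaving out *ein6-1* ET replicate 2, which lies outside these comparisons. Leaving out a compared library called fewer members there than the full fit. With 2 libraries per group, differences of more than 2 standard errors could also fail the test, such as TSO2 in *een-1* (0.39 ± 0.14, adjusted p = 0.051). A lone library left in a group was assumed to vary like the other groups.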

Other observations

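Among genes outside the 42, RNR2A, a small subunit of ribonucleotide reductase like TSO2, was close to 0 in *ein6-1* alone of the L*er* background lines. It had 0.150 and 0.515 TPM in *ein6-1* and 4.22 and 4.32 TPM in L*er* in air (log2 fold change -2.0 ± 0.18, adjusted p = 6.1e-06 by limma), and 0.253 and 0.315 TPM in *ein6-1* after ET. In *ein6-1 een-1*, which carries the same *ein6-1* lesion, it had 2.97 and 3.16 TPM in air and 3.99 and 4.03 TPM after ET. RNR2A thus differed between both lines that share the lesion, and it was named after its values were seen. SMR1, a CDK inhibitor gene, had 53.7 and 57.7 TPM in *ein2-45* and 114 and 106 TPM in L*er* (log2 fold change -0.97 ± 0.17, adjusted p = 0.00069 by limma), and 67.0 and 75.9 TPM in *ein6-1* (log2 fold change -0.62 ± 0.17, adjusted p = 0.036). In *arp5-1*, KRP4 and MYB3R3, an inhibitor and a MYB3R gene, had log2 fold changes of -0.84 and -0.63, while those of ORC6 and RNR2A were 1.65 and 1.59, all past the test.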
